A study of Mus musculus with 9 samples.

Results

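Among the sites where Flag-tagged MyoD1 was found in untreated C2C12 myoblasts, a minority was missing from the consensus of cells given doxycycline (dox). Overlapping or touching peaks of one condition were joined into regions, and a region with peaks from 2 or more of the 3 libraries counted as consensus. The members described here were chosen by that rule as untreated consensus regions sharing no base with a +dox consensus region. There were 957 members among 9560 untreated consensus regions, which is 10%. The other 8603 are called shared regions. In the opposite direction, 5361 of 13908 +dox consensus regions (38.5%) shared no base with an untreated one and are called dox-only regions. The rule used the peak calls themselves, so the number of members, their calls in each library and their height are given as descriptions without a test.

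The cells were C2C12, a mouse skeletal muscle myoblast line. All 6 libraries came from one clonal line with the 3xF-Halo tag on MyoD1 at its own locus and a further dox-inducible 3xF-Halo-MyoD1 transgene, so the no dox libraries carry the inducible copy too. Cultures entered differentiation medium with no treatment (no dox, 3 biological replicates) or with dox at 1 µg/mL (+dox, 3 biological replicates) and were collected after 6 h. CUT and RUN with the anti-Flag M2 antibody, in which a nuclease tethered by an antibody releases the DNA around the bound protein, was run on each. No value stands beside a background from untagged cells, since the 3 wild-type libraries were not analysed here.

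MyoD1 is a basic helix-loop-helix factor that drives myoblasts toward muscle. It binds DNA as a dimer with an E protein at E-boxes, which have the letters CANNTG, and its preferred E-box reads CAGCTG. Other factors that bind near it in muscle cells include AP-1 (TGACTCA or TGAGTCA), TEAD factors (GGAATG) and RUNX factors (TGTGGT). Its sites lie both at promoters and in distal enhancers.

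Sequence around the maximum is shown first for the highest of the members that all no dox libraries called, since these had the best support without dox. Each stretch is 120 bp of the plus strand of GRCm38 centred on the highest no dox peak. Capitals mark every CANNTG. Of the 10 highest such members 4 hold CAGCTG and 6 do not, against 30.1% of all members with it. All 4 with the motif are shown first, and then the highest of the 10, at Fndc1, and the one at Tubb4b, which ranks highest without no dox replicate 2, neither of which has it.
Tead1 (chr7:112760866-112760985): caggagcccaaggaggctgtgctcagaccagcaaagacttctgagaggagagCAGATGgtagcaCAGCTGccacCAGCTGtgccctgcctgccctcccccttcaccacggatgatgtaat
Drp2 (chrX:134409566-134409685): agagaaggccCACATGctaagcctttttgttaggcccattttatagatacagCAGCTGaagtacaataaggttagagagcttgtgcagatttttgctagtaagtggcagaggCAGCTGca
Pkm (chr9:59659791-59659910): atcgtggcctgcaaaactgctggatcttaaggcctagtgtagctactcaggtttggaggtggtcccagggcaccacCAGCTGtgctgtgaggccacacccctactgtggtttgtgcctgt
Lhfpl2 (chr13:93992491-93992610): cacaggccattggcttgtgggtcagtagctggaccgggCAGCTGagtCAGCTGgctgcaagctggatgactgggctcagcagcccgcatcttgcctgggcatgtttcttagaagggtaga
Fndc1 (chr17:7753566-7753685): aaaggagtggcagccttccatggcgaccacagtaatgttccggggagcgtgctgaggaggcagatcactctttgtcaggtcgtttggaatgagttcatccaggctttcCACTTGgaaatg
Tubb4b (chr2:25228516-25228635): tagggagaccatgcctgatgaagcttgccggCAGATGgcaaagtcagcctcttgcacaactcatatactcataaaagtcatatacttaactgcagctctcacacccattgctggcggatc
The genes named are those with the nearest protein-coding start. Tead1, Drp2 and Lhfpl2 have 2 copies of CAGCTG in the window and Pkm has 1. The copy nearest to the centre of the maximum lay 7 bp from it at Tead1, 5 bp upstream on the plus strand (offset -5 bp) at Drp2, 19 bp away at Pkm and at an offset of -10 bp at Lhfpl2.

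CAGCTG was found within 100 bp of the maximum in 17.2% of the 128 members with no peak in any +dox list. Sae1, among the highest members when no dox replicate 2 is left out, is shown for TGTGGT, with the 3 copies on both strands in capitals.
Sae1 (chr7:16340916-16341035): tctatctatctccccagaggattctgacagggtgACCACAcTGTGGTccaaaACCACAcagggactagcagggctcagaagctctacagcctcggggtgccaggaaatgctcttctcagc
A match of letters describes the window and does not show that a factor was bound there.

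The members were unevenly supported by the 6 libraries. Of the 957 members, 413 (43.2%) had a peak in no dox replicate 1, 853 (89.1%) in replicate 2 and 771 (80.6%) in replicate 3. Among no dox libraries, 544 members were called in replicates 2 and 3 alone, 186 in 1 and 2, 104 in 1 and 3, and 123 (12.9%) in all 3. Of the shared regions, 63.5% were called in all 3 no dox libraries. A member could still have a peak in 1 +dox library, and most did. +dox replicate 3 had a peak in 781 members (81.6%), whereas replicate 1 had one in 27 (2.82%) and replicate 2 in 29 (3.03%). In total, 821 members had a peak in 1 +dox library, 8 in 2 of them at different places of the region, and 128 in none. These 128 are 1.34% of the untreated consensus regions. The largest group, 774 members, was called with dox in replicate 3 alone.

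**Figure D1:**
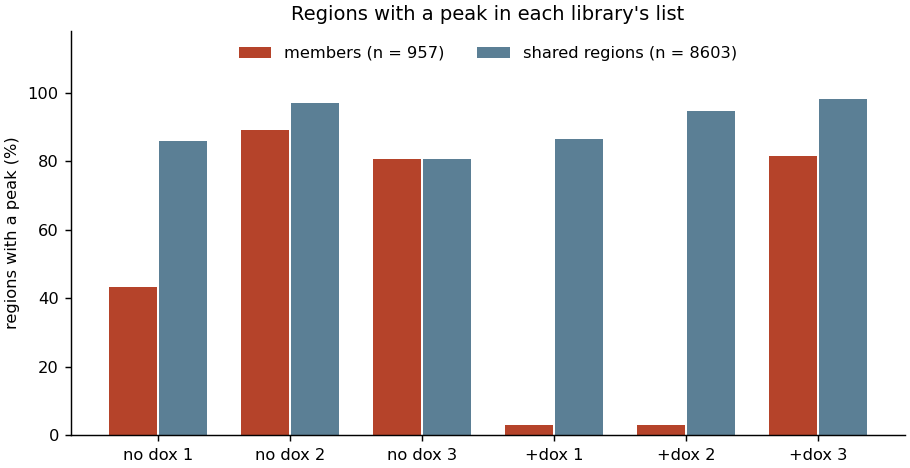
Bars give the percent of regions with a peak (y axis) in each of the 6 libraries (x axis), for the 957 members and the 8603 shared regions. Members had a peak in 81.6% of cases in +dox replicate 3 and in 2.82% and 3.03% in +dox replicates 1 and 2, while shared regions were at 86.5% or more in the 3 +dox libraries.

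The lists differed in depth and length. +dox replicate 3 had 53661 peaks at about 8030000 alignments, and its lowest total signal was 336. +dox replicates 1 and 2 had 12536 and 13260 peaks at about 2868000 and 3597000 alignments, with lowest total signals of 837 and 904. The no dox lists held 9389, 13877 and 13403 peaks at 4297000 to 4667000 alignments, and replicate 3 reached down to a total signal of 354, against 861 and 869 in replicates 1 and 2. The number of members moved with the libraries used. It was 230 without no dox replicate 2, 310 without no dox replicate 3, 2090 without +dox replicate 2 and 2554 without +dox replicate 3. When same-numbered libraries were set against each other in a replicate block, 377 untreated consensus regions had a no dox peak and no +dox peak in at least 2 of 3 pairs. The part of depth and list length in these counts cannot be told apart from that of dox.

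No dox replicate 2 decided most of the memberships. Without it the untreated consensus needed both replicates 1 and 3 and fell to 5955 regions, of which 230 (3.86%) shared no base with a +dox consensus region. Of the 957 members 225 were kept and 732 were not, and 225 of the 230 overlapped a member. The shares compared between classes are therefore also given without it.

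Members were lower peaks than shared regions without dox. Height is given as the percentile of a peak's maximum signal within its own list. The median percentile of members was 21.4, 29.1 and 47.9 in no dox replicates 1, 2 and 3, against 57.7, 67.4 and 70.0 for shared regions. In maximum signal the members' medians were 3.26, 3.16 and 3.00 CPM (coverage scaled to library size), and each equals 14 alignments at the highest point, against 26, 28 and 22 alignments in shared regions. In all 3 lists the members stood below the shared regions. Over all peaks the median percentiles were 48.5, 51 and 47.9 in no dox replicates 1, 2 and 3. Members thus stood below the middle of the list in replicates 1 and 2 and at it in replicate 3. Height is not independent of the rule, so this difference was not tested. In +dox replicate 3, whose list is the longest, the 820 peaks in members had a median percentile of 78.5, against 88.9 in shared regions.

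**Figure D2:**
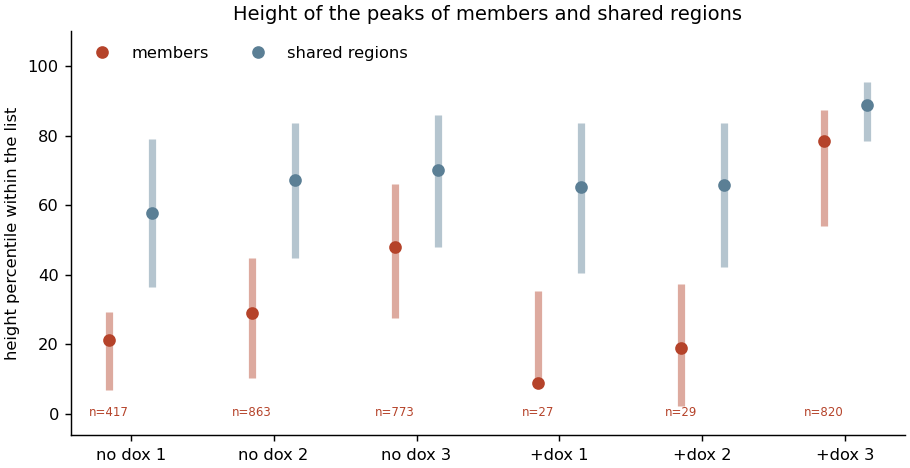
Points give the median and bars the first to last quartile of the height percentile (y axis, within each list) of the peaks of members and shared regions in each library (x axis), and n is the number of member peaks. Members lay lower than shared regions in every list, with medians from 21.4 to 47.9 without dox, and stood at 78.5 in +dox replicate 3.

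Where both replicates 3 called a member, signal was usually higher with dox. Among 668 such members the median maximum was 3.00 CPM in no dox replicate 3 and 4.23 CPM in +dox replicate 3. The median ratio was 1.19 (quartiles 0.814 and 1.86), and 63.0% had the higher value with dox. Among 6805 shared regions the corresponding medians were 4.71 and 9.21 CPM, the median ratio was 1.81 and 87.7% were higher with dox. Most of these members thus had more signal in +dox replicate 3 than without dox, though the +dox consensus lacks them. This compares 1 library with 1 library after scaling to library size, and only at places both lists called, so it has no replicate check.

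At the edge of the rule, 5 members lay 50 bp or less from a +dox consensus region. The nearest, in an intron near Lrch1, touched one at a distance of 0 bp and had maxima of 3.16 and 4.29 CPM in no dox replicates 2 and 3 and 22.4 CPM in +dox replicate 3. The next, near Smoc1 and Wnt1, each lay 50 bp away. On the other side, the shared regions with the shortest overlaps, of 50, 100 and 150 bp, lay near Myh9, Igfbp3 and Ubac1, with mean percentiles of 12.6, 4.04 and 46.7. The median distance of members to a +dox consensus region was 15100 bp and to a shared region 24850 bp. At least 1 kb separated 899 members from every +dox consensus region.

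The 10 highest members called in all 3 no dox libraries were all called in +dox replicate 3 and in no other +dox library. The highest lay on a coding exon of Fndc1, which encodes a fibronectin type III domain protein (chr17:7752751-7754050). Its maxima were 5.82, 10.4 and 9 CPM in no dox replicates 1, 2 and 3 and 12.7 CPM in +dox replicate 3. The Tead1 region, in an intron of a TEAD transcription factor gene (chr7:112760651-112761500), had 6.52, 7.68 and 6.86 CPM without dox and 9.71 CPM in +dox replicate 3. It was the most even of these sites across the untreated libraries. At Pkm, the muscle pyruvate kinase gene, an intronic region (chr9:59659351-59660150) had 5.12, 7.23 and 5.14 CPM without dox and 11.0 CPM in +dox replicate 3. An intronic region nearest to Drp2, a dystrophin-related gene (chrX:134408951-134410600), ran from 3.72 over 8.13 to 16.3 CPM across no dox replicates 1, 2 and 3 and had 34.4 CPM in +dox replicate 3. Its untreated libraries thus differed by more than those of the other regions named here.

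The others of these 10 lay nearest to Spire1 (an actin nucleator), Tubb4b (a beta tubulin), Setd4, Fzd8 (a Wnt receptor), Lhfpl2 and Sept9 (a septin). Their mean percentiles over the no dox lists ran from 64.0 to 72.2. The starts of Setd4, Fzd8 and Lhfpl2 were 254857, 567087 and 65270 bp away. The region assigned to Lhfpl2 counted as a promoter by an annotated start that is not of a protein-coding gene. In 8 of the 10, the maximum in +dox replicate 3 was above that in no dox replicate 3. The region nearest to Fzd8 was an exception, with 4.19, 7.23 and 13.7 CPM without dox and 7.72 CPM in +dox replicate 3. At Sept9 the maxima were 4.65, 9.03 and 4.71 CPM without dox and 3.98 CPM in +dox replicate 3. These are the 2 of the 10 with a lower maximum in +dox replicate 3. Without no dox replicate 2, the 5 highest members lay nearest to Tubb4b, Tex2, Sae1, Fndc1 and Tead1, with mean percentiles over replicates 1 and 3 of 71.7 to 73.8. Tubb4b, Fndc1 and Tead1 are thus named by both rankings.

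The 5 members called in 3 of 3 no dox and 0 of 3 +dox libraries were low. Promoter regions made up 4 of these 5, and they lay nearest to Hhex (a homeobox gene), Grhl2 (a regulator of epithelial genes), Hdac5 (a histone deacetylase that represses Mef2 factors) and Cep170b. Hhex had the highest mean percentile, 18.7, with maxima of 2.33, 4.06 and 1.29 CPM, and Cep170b the lowest, 8.43, with 2.33, 1.81 and 1.71 CPM. At Hdac5 the maxima were 1.86, 2.71 and 1.29 CPM. A peak of 1.29 CPM in no dox replicate 3 corresponds to 6 alignments.

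Several members owed their height to no dox replicate 2. In 7 members the maximum in that library was over 10 times that in both other no dox libraries, and in no member was replicate 1 or 3 so far above the rest. This threshold was set after the values had been seen. One of the 7 lay at the start of Myog, the gene of myogenin, a muscle regulatory factor downstream of MyoD1 (chr1:134289501-134290650). Its maxima were 3.72, 208 and 3.00 CPM in no dox replicates 1, 2 and 3 and 1.74 CPM in +dox replicate 3, and +dox replicates 1 and 2 had no peak there. It stayed a member without no dox replicate 2. The other 6 lay in Cdh23, which encodes an atypical cadherin.

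Of these Cdh23 members 5 lay on coding exons and 1 within 1 kb of an annotated start. In no dox replicate 2 their maxima ran from 129 to 292 CPM, whereas in no dox replicates 1 and 3 they were at 5.57 CPM or below or had no peak. None was kept without no dox replicate 2. Over the whole gene, that library listed 50 peaks with a median maximum of 60.6 CPM, and 39 of them (78.0%) lay on coding exons. The other 5 lists held 7 to 32 peaks in Cdh23 with median maxima of 1.25 to 9.07 CPM, of which 12.5% to 58.8% lay on coding exons. None of the 6 members had CAGCTG within 100 bp of the maximum. Among shared regions, 7 showed the same excess of no dox replicate 2, of which 5 were in Cdh23 and 2 in Myod1, the gene of MyoD1 itself. The height of the 6 Cdh23 members therefore rests on 1 library, whereas the Myod1 promoter was also high elsewhere, at 43.5 and 28.7 CPM in no dox replicates 1 and 3. In these 7 members, Myog included, and 7 shared regions, the highest no dox peak was centred on or within 50 bp of a coding exon.

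Promoters were less frequent among members than among shared regions. A promoter peak has the centre of its maximum within 1 kb of an annotated transcription start. Of the members' peaks 41.7%, 31.5% and 24.2% were at promoters in no dox replicates 1, 2 and 3, against 57.3%, 55.4% and 49.3% of the peaks in shared regions. Over all peaks of these lists the shares were 56.6%, 52.8% and 34.6%, so in replicate 3 members stood closer to the list than to shared regions. The members were lower than shared regions in 3 of 3 libraries, by 21.5 percentage points on average (SD of the difference 5.21, n = 3). By the rule each of these regions was called in at least 2 of the 3 lists, so the libraries largely count the same regions. Agreement of 3 libraries, the SD and the sign-flip p-values, here and below, therefore do not rest on independent sets of regions. A two-sided exact sign-flip test gave p = 0.25, the smallest that 3 libraries allow, and 0.35 after adjustment over 7 tests. Without no dox replicate 2 the shares were 28.9% and 29.1% against 50.6% and 50.8%. When shared peaks were weighted so that each decile of height counted as much as among members, the gap was -29.9 points. It was narrower with lists of equal length, at -11.1 points, with +dox replicate 3 alone shortened, at -9.06 points, and without no dox replicate 3, at -11.7 points. Of the 128 members with no peak in any +dox list, 51.6% were at promoters by region, and with these alone the gap was -2.75 points. Of the dox-only regions 66.5%, 55.2% and 56.0% of peaks in +dox replicates 1, 2 and 3 were at promoters. This was 26.7 points above the members, without overlap between libraries of the classes. A two-sided exact permutation test gave p = 0.1, the lowest possible when libraries are permuted freely (adjusted p = 0.35). With same-numbered libraries paired, an exact two-sided sign-flip test gave p = 0.25, also its lowest. Without no dox replicate 2 this gap was -33.5 points. It narrowed with lists of equal length to -10.1 points (exact permutation p = 0.5) and with +dox replicate 3 alone shortened to -5.39 points (exact permutation p = 0.7), so the separation was then lost. Those shares come from the +dox lists and the members' from the no dox lists, so this comparison alone does not separate class from list. Within no dox replicates 1, 2 and 3, 71.7%, 69.7% and 33.6% of peaks in dox-only regions were at promoters, all above the members. In +dox replicate 3 the 820 member peaks had 26%, against 56.0% of dox-only peaks and 26.5% of all peaks of that list. The 27 and 29 member peaks of +dox replicates 1 and 2 had 77.8% and 51.7%, against 66.5% and 55.2%.

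Counted once per region by its highest no dox peak, 291 members (30.4%) lay at promoters, 348 (36.4%) in introns, 220 (23.0%) between genes, 72 (7.52%) on coding exons and 26 (2.72%) on other exons. For shared regions these shares were 55.5%, 23.9%, 17.5%, 1.37% and 1.74%. The members' median distance to an annotated start was 4121 bp, against 442 bp in shared regions, and 33.2% of members lay over 10 kb from a start. Location differed with the libraries that called a member. Of the 186 members called in no dox replicates 1 and 2 alone 58.1% were at promoters, against 21.9% of the 544 called in replicates 2 and 3 alone. Of the 230 members left without no dox replicate 2, 28.3% were at promoters and 39.6% in introns. The wider peaks of replicate 3 moved with this difference: in that library member peaks had a median width of 1050 bp, against 750 bp in replicate 1 and 800 bp in replicate 2. Its part in the location shares was not tested.

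Coding exons were more frequent among members. A peak was counted when the centre of its maximum lay on or within 50 bp of a coding exon and not at a promoter. The shares were 12.5%, 9.27% and 6.99% of member peaks in no dox replicates 1, 2 and 3, against 1.58%, 1.88% and 1.74% in shared regions. Over all peaks of these lists the shares were 3.45%, 4.8% and 3.49%, so members stood above the lists by less than above shared regions. Members were higher than shared regions in 3 of 3 libraries, by 7.84 points (SD of the difference 2.85, n = 3, exact two-sided sign-flip p = 0.25, adjusted p = 0.35). The ranges did not overlap. Without no dox replicate 2 the shares were 8.19% and 8.70% against 1.44% and 1.53%. The difference narrowed to 3.57 points with lists of equal length and to 3.85 points for members called in 3 of 3 no dox libraries. It was 3.62 points without +dox replicate 3 and 3.84 points without +dox replicate 2. For members with no peak in any +dox list it widened to 19.1 points. Of dox-only peaks 2.92%, 3.91% and 3.24% lay on coding exons.

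The 91 members on coding exons were spread over 83 genes. Cdh23 held 5, Cacna1a 3, and Rfx1 and Tnpo2 2 each, and the rest had 1 each, among them Celsr1, Col15a1 and Drosha. Leaving Cdh23 out of every list did not remove the difference, which was then 7.48 points. These members were lower than the rest, with a median mean percentile of 21.3 against 34.2 in the other 866. +dox replicate 3 called 58.2% of them against 84.1% of the others, and no +dox list called 29.7% against 11.7%. CAGCTG was found in 29.7% of them and in 30.1% of the other members.

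**Figure D3:**
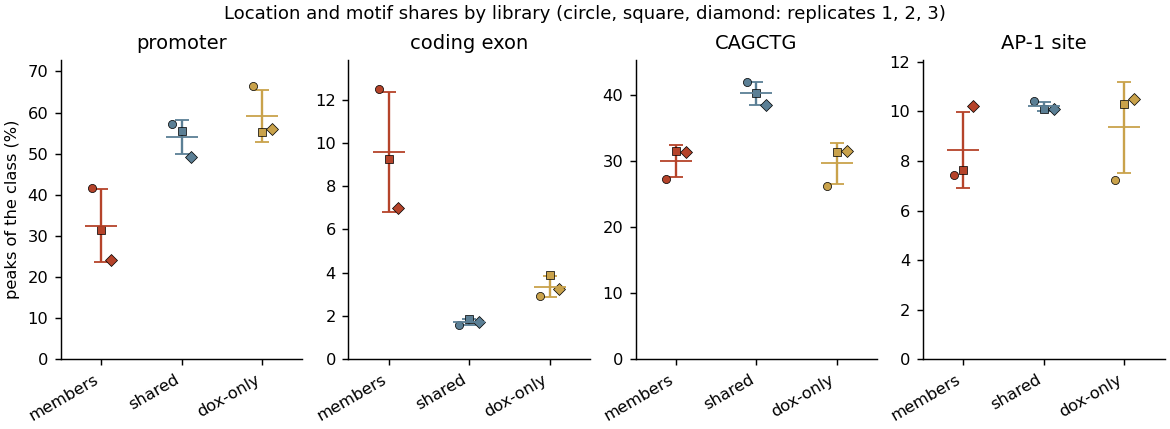
Each symbol is the share of peaks (y axis, percent) of members or shared regions in 1 no dox library, or of dox-only regions in 1 +dox library, that lie at a promoter or coding exon or hold CAGCTG or an AP-1 site within 100 bp of the maximum. Horizontal marks and bars give the mean ± SD over 3 libraries. Members lay below both other classes at promoters (mean 32.5% against 54.0% and 59.2%) and above both on coding exons (9.58% against 1.73% in shared regions).

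CAGCTG was less frequent around the members' maxima than around those of shared regions. Within 100 bp of the centre of the maximum it was found in 27.3%, 31.6% and 31.4% of member peaks in no dox replicates 1, 2 and 3, against 42.0%, 40.3% and 38.6% of peaks in shared regions and 38.9%, 34.4% and 31.6% of all peaks of the lists. Members were lower than shared regions in 3 of 3 libraries, by 10.2 points (SD of the difference 3.95, n = 3, exact two-sided sign-flip p = 0.25, adjusted p = 0.35). Without no dox replicate 2 the shares were 31.9% and 33.5% against 46.0% and 40.7%. The gap shrank to -3.03 points without +dox replicate 2, to -4.75 points without +dox replicate 3 and to -3.96 points over whole peaks. The difference did not hold at equal height: when shared peaks were weighted to the height deciles of members it turned to +2.58 points. Away from promoters the gap was wider, at -18.3 points, with 34.2%, 36.2% and 34.1% of member peaks against 57.5%, 53.8% and 48.2%. That gap was not weighted by height. Of all peaks away from promoters in these lists 52.9%, 44.6% and 34.6% had CAGCTG, so members stood near that share in replicate 3. Over all locations, 26.2%, 31.4% and 31.6% of dox-only peaks in +dox replicates 1, 2 and 3 had CAGCTG. These shares lie near those of members, so a low share is not particular to members.

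Among the members the motif varied with location. By region, 19.2% of promoter members (95% Wilson interval 15.1% to 24.2%, which covers counting error only) and 36.2% of intronic members (31.3% to 41.4%) had CAGCTG, and intergenic members were at 35.9%. In shared regions these shares were 28.9%, 52.4% and 49.8%. When no dox replicate 2 was left out, promoter, intronic and intergenic members had 27.7%, 41.8% and 31.4%, against 33.3%, 54.5% and 52.3%. At least 2 copies were found in 60 members (6.27%) and in 9% of shared regions. Of the 288 members with CAGCTG, the nearest copy lay within 40 bp of the centre of the maximum in 51%, with a median distance of 40 bp, against 55.7% and 36 bp in shared regions. Any E-box CANNTG was found in 71.4% of members and in 71.4% of shared regions, and in 70.4% and 75.5% when no dox replicate 2 was left out. Member peaks with CAGCTG had a median percentile of 21.4, 29.1 and 55.3 in no dox replicates 1, 2 and 3 and those without it 13.6, 29.1 and 38.6, so the gap was not seen in replicate 2. In shared regions the corresponding medians were 70.2, 77.7 and 78.4 against 48.5, 60.7 and 61.2.

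**Figure D4:**
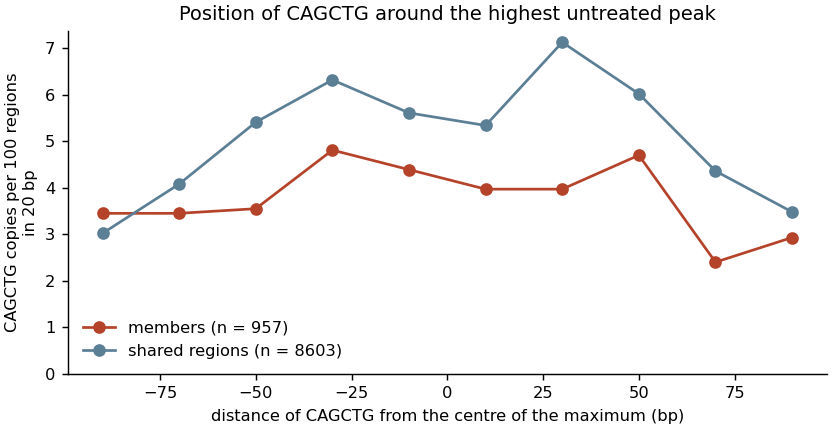
The y axis gives copies of CAGCTG per 100 regions in bins of 20 bp and the x axis their distance from the centre of the maximum of the highest no dox peak, for members and shared regions. Shared regions rise toward the middle, and members lie below them in all bins but the leftmost.

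Over all peaks, the AP-1 shares of members overlapped those of both other classes. Sites were found within 100 bp of the maximum in 7.43%, 7.65% and 10.2% of member peaks in no dox replicates 1, 2 and 3, against 10.4%, 10.1% and 10.1% in shared regions. The difference of -1.79 points had 2 of 3 libraries lower (exact two-sided sign-flip p = 0.5, adjusted p = 0.583). Dox-only peaks had 7.25%, 10.3% and 10.5%, a difference of -0.942 points from members (exact two-sided permutation p = 0.7, adjusted p = 0.7). Away from promoters the members stood lower: the shares were 10.3%, 9.31% and 11.1% in no dox replicates 1, 2 and 3, against 18.7%, 17.3% and 15.5% in shared regions (-6.92 points, exact two-sided sign-flip p = 0.25) and 16.3%, 19.3% and 19.6% in the dox-only peaks of +dox replicates 1, 2 and 3 (-8.15 points, exact two-sided permutation p = 0.1). Each of these p-values is the smallest possible for its test, and neither belongs to the 7 adjusted tests. The permutation test away from promoters was not repeated with same-numbered libraries paired, and neither gap away from promoters was weighted by height. Over all peaks, both differences changed sign when the window was widened to 250 bp and when +dox replicate 2 or 3 was left out. Without no dox replicate 2 the members had 10.8% and 10.9%. Within the +dox replicate 3 list AP-1 was in 14.8% of the 820 member peaks, against 10.5% of dox-only and 10.9% of shared peaks. Away from promoters it was in 16.8% of member peaks there, against 19.6% and 18.8%, and in 13.2% of all peaks of that list. The 27 and 29 member peaks of +dox replicates 1 and 2 had 0%. Of all peaks away from promoters, 16.9%, 13.7% and 11.8% held AP-1 in no dox replicates 1, 2 and 3. Other motifs were given no test. TGTGGT was found in 15.1%, 19.4% and 23.3% of member peaks against 13.8%, 14.2% and 15.6% of shared ones, higher in 3 of 3 libraries. By region it was in 23.9% of the 230 members left without no dox replicate 2 and in 6.25% of the 128 members with no +dox peak. GGAATG was at 9.59%, 11.7% and 12.8% against 11.3%, 11.3% and 12.6%. CAGGTG was at 20.1%, 21% and 20.2% against 18.1%, 18.3% and 19.1%.

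Members were less GC-rich at the maximum. Median GC content of the 200 bp window was 59.5%, 57.0% and 54.5% in no dox replicates 1, 2 and 3, against 62.0%, 61.5% and 58% in shared regions, lower in 3 of 3 libraries by 3.50 points (SD of the difference 1.00, n = 3, exact two-sided sign-flip p = 0.25, adjusted p = 0.35). The difference was -3.50 points when no dox replicate 2 was left out. Away from promoters it was -1.67 points.

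The share of members differed between chromosomes. They made up 14.4% of untreated consensus regions on chromosome 8 (111 of 770) and 13.9% on chromosome 15 (91 of 654), against 10% overall and 6.37% on chromosome 7. Between 80 and 95 Mb of chromosome 8, 72 of 315 regions (22.9%) were members, against 9.57% elsewhere. The 5 Mb with the most members were 80 to 85 Mb, with 36. The same stretch had 16 of 183 (8.74%) without no dox replicate 2, against 3.86% overall. These stretches were chosen after their values had been seen. The share of all peaks on chromosome 8 was 8.04%, 8.29% and 9.46% in the no dox lists and 7.03%, 7.35% and 8.37% in the +dox lists, and the ranges overlap. Leaving out chromosomes 8 and 15 changed the sign of no difference above other than that of AP-1 against dox-only regions.

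**Figure D5:**
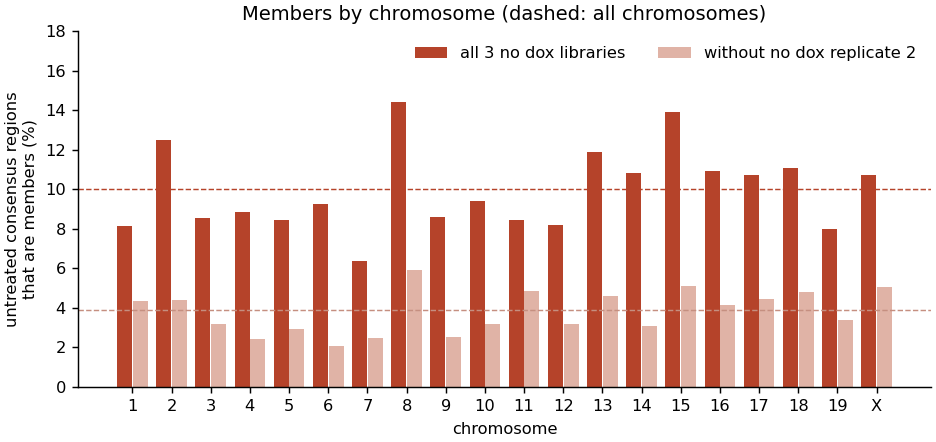
Bars give the percent of untreated consensus regions that are members (y axis) on each chromosome (x axis), with all no dox libraries and without no dox replicate 2, and dashed lines give the values over all chromosomes (10% and 3.86%). Chromosomes 8 and 15 stand highest with all libraries, at 14.4% and 13.9%.

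Most genes that held at least 3 members lie on chromosome 8. Of the 9 protein-coding gene models concerned, Cacna1a (a neuronal calcium channel), Galnt2 (a glycosyltransferase), Rfx1 (a transcription factor), Tecr (a reductase of fatty acid elongation) and Tnpo2 (a nuclear import receptor) lie on chromosome 8, as does Gm20388, a model that spans several genes with Galnt2 among them. Gm20388 had 7 members among 85 untreated consensus regions, below the share of all regions, with the 4 of Galnt2 among them. Cacna1a had 7 members among 16 untreated consensus regions, with mean percentiles of 25.6 to 50.8, of which 6 were also called in +dox replicate 3, and CAGCTG was found in 4. Only 1 of the 7 in Cacna1a was kept without no dox replicate 2. Galnt2 had 4 among 7, in introns, and 3 of these were kept. One of them, called in all no dox libraries (chr8:124316251-124317850), had maxima of 5.12, 4.06 and 3.43 CPM without dox and 3.98 CPM in +dox replicate 3. Myh9, which encodes a nonmuscle myosin heavy chain, had 4 among 12, with mean percentiles of 9.24 to 44.1, and none was kept. Srcin1 had 3 members among 3 regions, and none was kept.

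Most lists of muscle genes had a member share near that of all regions, where a region was assigned to the protein-coding gene with the nearest start. The 957 members had 842 different nearest genes. In 19 lists of 518 genes, 70 members lay nearest to a listed gene. Of the regions nearest to sarcomere genes 3 of 31 were members (9.68%), of those nearest to myoblast fusion genes 4 of 39 (10.3%), of the muscle regulatory factors 1 of 7, of neuromuscular junction genes 2 of 17, and of the dystrophin complex 1 of 16, against 10% of all regions. There were 0 members among 33 regions at excitation-contraction coupling genes and 0 among 7 at Mef2 genes. Near Des, the gene of desmin, a member 12828 bp from the start had 5.58 and 5.14 CPM in no dox replicates 1 and 3 and 5.48 CPM in +dox replicate 3. A member 26326 bp from the start of Myh2, a fast myosin heavy chain gene, had 3.26, 4.06 and 5.14 CPM without dox and 10.2 CPM in +dox replicate 3. Near Cdon, a cell surface receptor of the fusion list, the maxima were 3.61 and 5.57 CPM in no dox replicates 2 and 3 and 5.48 CPM in +dox replicate 3.

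Of the 19 lists, cadherins and immunoglobulin-type adhesion genes had the highest member shares. Of 29 regions nearest to cadherin and protocadherin genes 10 were members (34.5%), and 1 remained without no dox replicate 2, and 6 of the 10 were those in Cdh23. The others lay near Celsr1, Dchs1, Fat4 and Pcdh8. Of 24 regions nearest to immunoglobulin-type adhesion genes 5 were members (20.8%), assigned to Cadm1, Cadm4, Ncam1 and Nectin1, and 0 remained. A member assigned to Cadm1 lay 253547 bp from the start, one assigned to Ncam1 207251 bp and one assigned to Nectin1 80280 bp. The Cadm4 member (chr7:24479451-24481000) had 4.06 and 8.57 CPM in no dox replicates 2 and 3 and 19.7 CPM in +dox replicate 3. It lay 1797 bp from the start and 500 bp from a +dox consensus region. For integrins it was 3 of 24 (12.5%), near Itga2, Itga3 and Itgb7. The Itga3 member (chr11:95096451-95097250) lay between genes, 20050 bp from the start. It had 3.61 and 3.86 CPM in no dox replicates 2 and 3 and 1.49 CPM in +dox replicate 3, lower than in either untreated library. Collagen and matrix genes had 11 of 76 (14.5%), of which Timp3, a metalloproteinase inhibitor, and Col4a1 and Col5a1 were the highest.

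The signalling lists lay on both sides of the overall share. Wnt pathway genes had 8 of 54 (14.8%), Notch 5 of 45 (11.1%), TGF-beta and BMP 4 of 64 (6.25%), FGF and IGF 2 of 27 (7.41%), cell cycle genes 3 of 52 (5.77%), AP-1 factors 2 of 28 (7.14%), E and Id proteins 2 of 19 (10.5%), and the list with Pax, Tead, Runx and Srf genes 6 of 67 (8.96%). The member assigned to Hes1, a Notch target gene, was called in no dox replicates 1 and 3 at 6.52 and 4.5 CPM and in +dox replicate 3 at 4.48 CPM, 223133 bp from the start. At Ski, a repressor of TGF-beta signalling, an intronic member had 3.16 and 2.57 CPM in no dox replicates 2 and 3 and no peak with dox. Counts in single lists were small, and no test was made on them.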

How the data were processed

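CUT and RUN with an anti-Flag antibody was analysed in 6 C2C12 libraries, 3 no dox and 3 +dox. The authors processed reads with nf-core/cutandrun 3.2.2 on mm10, removed blacklisted regions, scaled coverage to CPM without spike-in, and called peaks in each library with SEACR in relaxed mode. The labels also name deepTools. No control library for peak calling is given in the sources used here. Each deposited list gives intervals on a 50 bp grid with their total signal (summed coverage), maximum signal and the stretch of that maximum, and no fold changes or p-values.

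The members and gene lists were chosen with earlier results of these data known. Maximum signals were whole multiples of 1 step in 100% of peaks (tolerance 0.02 alignments), which gave the depths, and whether reads or fragments were counted is not given in the sources used here. Sequence came from GRCm38, the assembly behind mm10, and annotation from GENCODE M21, and 0 peaks ended past a chromosome end. Motifs were searched on both strands within 100 bp of the centre of the maximum. Shares were computed per library. Members and shared regions were compared within the 3 no dox lists by flipping the signs of the differences in all 8 ways (exact, two-sided), and members and dox-only regions by an exact two-sided permutation test over 20 assignments. The 7 tests formed one Benjamini-Hochberg family. With 3 libraries none could reach the usual level of significance.

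Same-numbered libraries deviated together from their group means, with correlations of log2(maximum signal + 1) over 58309 merged regions of 0.161, 0.175 and 0.397 for replicates 1, 2 and 3, all positive, although no dox replicate 2 correlated slightly more with +dox replicate 1 (0.191). By the rule that every same-numbered pair exceed 0.1, the numbers were taken to pair the libraries. This rests on the data, since the labels give only the numbers. Deviations from a mean of 3 libraries cancel out at each region, so the correlations depend on each other. With +dox replicate 3, no dox replicates 1 and 2 were at -0.173 and -0.291. Passing the rule thus does not show that replicates 1 and 2 are paired by number. Regions named are the 10 highest members called in all no dox libraries, those called in no +dox library, the 5 highest without no dox replicate 2, regions at the edge of the rule, genes holding at least 3 members and up to 3 genes a list by mean height percentile. Other genes in the text are named from counts. Alternatives left out each library, changed list length, the consensus and overlap rules, window, promoter distance and height weighting. Those leaving out Cdh23 or chromosomes 8 and 15, or shortening +dox replicate 3 alone, were added after the data were seen. The rule and tests recovered planted regions on simulated lists. Software was pysam 0.24.0, SciPy 1.17.1, pandas 2.3.3, matplotlib 3.10.9 and NumPy 2.4.6 under Python 3.11.15.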

Additional observations from a re-analysis of the deposited data

How the results depend on the processing

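The number of members depended on the libraries and the rule. Leaving out 1 library at a time gave 230 to 2554 members (667 and 1376 without replicate 1 of no dox and of +dox), 3 of 3 no dox libraries gave 123, no peak in any +dox list gave 128, the replicate block gave 377, and shortening +dox replicate 3 alone to the length of the shortest list, an alternative added after the data were seen, gave 1509. Lists of equal length gave 1254. For the differences, leaving out 1 library at a time gave ranges of -15.3 to -3.03 points for CAGCTG, -4.74 to 2.40 for AP-1, -28.7 to -11.7 for promoters, 3.62 to 10.9 for coding exons and -5.33 to -1.50 for GC content against shared regions, and -41.1 to -9.76 for promoters and -4.72 to 4.26 for AP-1 against dox-only regions. The promoter and coding exon differences kept their direction in all alternatives run. CAGCTG turned to 2.58 points with shared peaks weighted to the height deciles of members, and GC content to 0.500 with no peak in any +dox list. AP-1 against shared regions turned to 2.40 and 1.76 without +dox replicates 2 and 3, to 1.79 over whole peaks, to 0.778 within 250 bp and to 0.707 under height weighting. AP-1 against dox-only regions turned to 1.39 without no dox replicate 1, 2.14 without no dox replicate 2, 4.26 without +dox replicate 2 or 3, 1.39 with 3 of 3 no dox libraries, 10.4 over whole peaks, 4.22 within 250 bp and 0.144 without chromosomes 8 and 15. The causes were not tested. In the replicate block the difference from dox-only regions was -26.7 points for promoters (exact two-sided sign-flip p = 0.25) and -0.942 for AP-1 (exact p = 0.5), so the pairing changed no call. With 3 libraries a group no p could pass the usual threshold under any alternative, and the stability of calls therefore says nothing here. Members had a median of 14 alignments at their highest point, so single peak heights carry a large counting error.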

Other observations

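Another 5 members were 300 bp wide or narrower, all called in no dox replicates 1 and 2 alone. They were picked out after their values had been seen. The highest, on chromosome 2 (chr2:107737301-107737600), had 77.7 and 44.7 CPM in no dox replicates 1 and 2, 55.1 CPM in +dox replicate 2 and no peak in the other 3 lists, and 94.0% of its 200 bp window is marked as repeat in the assembly. One of 150 bp on chromosome 4 (chr4:23101551-23101700) had 93.1 and 38.8 CPM without dox and 61.2 CPM in +dox replicate 2, with 62.5% marked as repeat. A member on chromosome 9 (chr9:26170401-26170550) had 14.9, 8.58 and 16.7 CPM in the same 3 libraries and was marked as repeat over 100% of its window. One on chromosome 13 (chr13:96317301-96317500) had 8.84, 9.48 and 9.45 CPM, with 94.5% marked. The last, in an intron of Ccdc141, had 4.65 and 4.06 CPM without dox and 2.74 CPM in +dox replicate 3, with 49.0% marked. Over all members the mean share marked as repeat was 8.53%, 7.98% and 9.15% of the window in no dox replicates 1, 2 and 3, and in shared regions 6.00%, 6.24% and 7.22%.

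A promoter member at Prm1, the gene of a sperm protamine (chr16:10796501-10797100), had 26.1 and 14.9 CPM in no dox replicates 1 and 2 and no peak in no dox replicate 3 or with dox. It was the highest member called in no +dox list by mean percentile, at 92.2, and was noticed after its value had been seen.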
